A study of Mus musculus with 12 samples.

Results

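Muscle injected with a matrix gel was compared with muscle injected with phosphate-buffered saline (PBS), the gel's vehicle. The material was the tibialis anterior of the mouse, a fast-twitch muscle at the front of the lower leg. The comparison used 8 of the 12 RNA sequencing libraries of the series, chosen by the treatment named in the labels: 4 gel libraries and 4 PBS libraries. Per the labels, 50 µl of gel at 6 mg per ml went into the left muscle and the same volume of PBS into the right muscle. The deposited names give each gel library the same animal number as 1 PBS library, so the legs were compared within 4 animals, numbered 1 to 4 after the titles. The remaining 4 libraries came from uninjured muscle and serve only as a background here. Since gel went left and PBS right in every animal, the treatment and the side of the body cannot be told apart. The sources used here do not give the strain, sex or age, which of the injuries in the series title these muscles had, how long after injection they were collected, or what tissue the gel was made from. The question was how the RNA of the injected muscle differs between the gel and its vehicle, gene family by gene family.

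Gels of this kind are made by digesting decellularised tissue and are used as scaffolds that host cells enter and remodel. A biomaterial placed in muscle is met by innate immune cells, which recognise it through complement, Fc and pattern-recognition receptors, take it up by rearranging their actin cytoskeleton and break it down in lysosomes. Muscle fibres make up most of the RNA of such tissue, so RNA from entering cells takes counts from fibre genes in a fixed total. In bulk tissue, fewer cells of a type and less RNA per cell cannot be told apart.

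Library totals ran from 15626086 to 22182483 counts over all 12 libraries. In 13233 of 26264 genes the counts sufficed for a test. Levels are given as CPM, counts scaled to a common library total adjusted by TMM (trimmed mean of M values). They are not corrected for gene length, so levels of different genes are not compared. Low counts were mostly even: 83.4% of all values from 1 to 10 and 73.6% of those from 11 to 100, against 53.5% of those over 1000. With all counts halved and rounded up, a setting chosen after seeing the data, 2971 of the 2971 calls given below were kept. All 16 markers of adult fibres passed the count filter. The 14 macrophage markers that passed it, of 15 listed, summed with the untested one to between 1038 and 1872 CPM in gel libraries 1, 2 and 4, to 104 CPM in gel library 3 and to between 32.01 and 64.8 CPM in the PBS libraries. Gel library 3 thus stood nearer to the PBS libraries, and on the first principal component of the 8 libraries, which held 62.3% of the variance, it lay at 20.8 with PBS libraries between 31.5 and 62.0 and the other gel libraries between -75.9 and -54.8.

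Markers of other cell types were counted in the same way. Of 18 endothelial markers 0 rose and 1 fell, of 12 pericyte and smooth muscle markers 0 rose and 0 fell, and of 6 tested adipocyte markers 0 rose and 0 fell. The endothelial median within animals 1 to 4 was 0.48, -0.75, -0.56 and -0.05 on the log2 scale, and the summed level ran from 428 to 1122 CPM in gel and from 619 to 982 CPM in PBS libraries. Fibro-adipogenic progenitors, the matrix-producing mesenchymal cells of muscle, had 5 of 14 markers higher and 1 lower, with a median log2 fold change of 0.75. Their summed level was 378 to 743 CPM in gel and 373 to 842 CPM in PBS libraries. Most markers of neutrophils (3 of 14 tested) and of T, NK and B lymphocytes (6 of 22) had too few counts for a test. The summed neutrophil markers stood at 22.04 to 35.2 CPM in gel libraries 1, 2 and 4, 4.69 CPM in gel library 3 and 2.39 to 5.09 CPM in PBS libraries, and those of lymphocytes at 27.9 to 35.9 CPM in gel libraries 1, 2 and 4, 6.58 CPM in gel library 3 and 3.91 to 7.55 CPM in PBS libraries. Of 6 tested dendritic cell markers 2 rose and 0 fell. In animal 2 alone the Schwann cell list was lower in the gel leg, with a median of -0.69 on the log2 scale against 0.59 to 1.17 in the others. The part of these cell types in the differences described was not tested.

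In total 2971 genes differed between gel and PBS muscle in a paired edgeR fit with a Benjamini-Hochberg adjusted p under 0.05, or 22.5% of those tested. Of these, 1644 rose (12.4% of all genes tested) and 1327 fell (10.03%). These 2 shares are the background for every count of members given below. Rises were larger than falls: 1035 rises (7.82%) and 191 falls (1.44%) were at least 2-fold. The median log2 fold change of all genes tested was 0.0351. With libraries scaled so that 16 adult fibre genes were equal on average, a setting chosen after seeing the data, the median of all genes moved to 0.503, and 5070 genes were higher and 157 lower. The share of higher among all calls was 55.3% in the first fit and 97% in the second. Every fall below is therefore a fall relative to the library total adjusted by TMM. For named genes that fell, the value or call under fibre scaling is given below. Counts under that scaling are given for some of the lists that held falls.

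The 4 animals were not alike, although 5892 genes (44.5% of those tested, called or not) had the same sign in all 4. Among the genes that rose, the median log2 change within an animal was 1.11, 1.45, 0.68 and 1.45 in animals 1 to 4. Among those that fell it was -0.83, -0.76, -0.38 and -0.79. Animal 3 had the smaller changes but mostly the same signs, with 1550 of the 1644 rises and 1311 of the 1327 falls. Animal 3 was itself part of the fit that made these calls, which favours genes with the same sign there. Its signs were not counted on calls made without it. Without animal 3 the count of calls was 3631, and without animal 1, 2 or 4 it was 1294, 913 and 886. Each such fit rests on 3 animals. In all 4 of them 422 rises and 226 falls kept their call, and called genes named below are from this group unless the animal whose removal ended the call is given. In brackets after the counts of a list stand the ranges of its rises and its falls over these 4 fits, whose high end came without animal 3 for most lists.

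**Figure D1:**
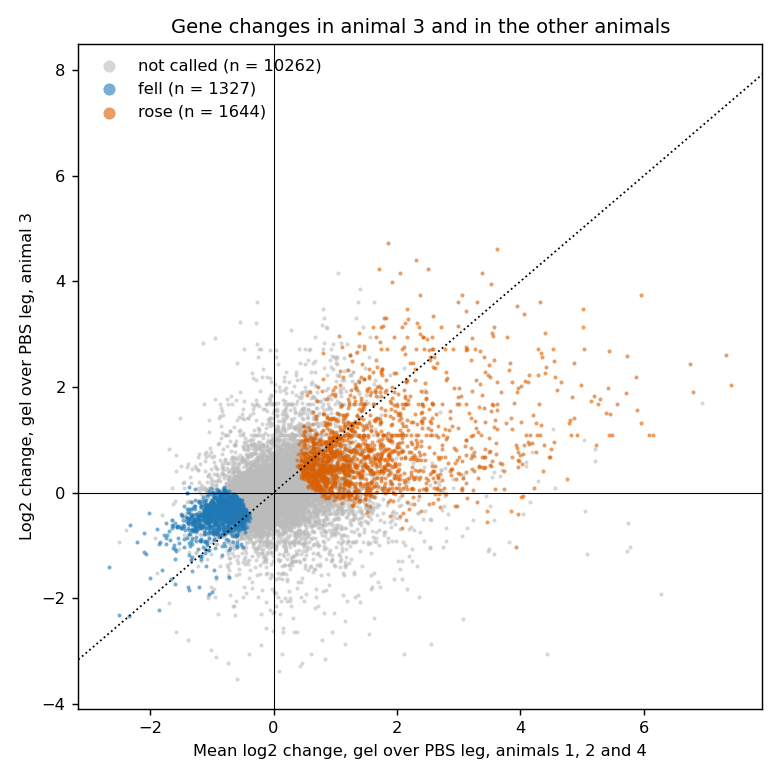
Log2 change of gel over PBS leg in animal 3 (vertical axis) against the mean of the changes in animals 1, 2 and 4 (horizontal axis), 1 point per gene, for the 13233 genes tested; orange points rose, blue points fell, grey points were not called. The dotted line marks equal change. The same sign in animal 3 was seen for 1550 of 1644 rises and 1311 of 1327 falls, the orange points above and the blue points below the level of 0. These calls came from the fit that included animal 3, which favours the same sign there.

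A set of genes changed by a large amount in each of the 4 animals. At least 2-fold in the same direction in every animal were 332 genes on the higher side (2.51% of all tested) and 15 on the lower side (0.113%). Ranked by the smallest of the 4 within-animal changes, the genes that rose were led by C3ar1, Clec7a, Bin2, Lair1, Gmfg, Btk, Ly86, Fgd2, Ptpn7 and Arhgap9. All are best known from blood cells: Bin2 encodes a membrane-bending protein, Lair1 an inhibitory receptor for collagen, Gmfg an actin debranching factor, Ly86 a partner of the Toll-like receptor relative CD180, Ptpn7 a phosphatase of MAP kinases, and Fgd2 and Arhgap9 regulators of small GTPases.

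Lair1 stood at 3.87, 10.01, 0.853 and 8.32 CPM in gel libraries 1 to 4 and 0.296, 0, 0 and 0.120 CPM in the PBS libraries of the same animals. Its 4 gel values lay above the 4 PBS values, and the gel value of animal 3 was the lowest of the gel group. The count filter asked for enough counts in at least 4 libraries, and no PBS library had them for Lair1. That its groups did not overlap was therefore fixed in advance, and the ranking had picked it for a rise in every animal. The log2 fold change of Lair1 was 5.58 ± 0.69 (edgeR adjusted p = 0.00228), and it moved to 7.17 without animal 1 and to 4.82 without animal 2. Bin2 stood at 6.61, 8.12, 1.71 and 8.21 CPM in gel and 0.197, 0.163, 0.114 and 0.479 CPM in PBS libraries, a log2 fold change of 4.67 ± 0.40 (edgeR adjusted p = 0.000201). The groups did not overlap, as for 20.3% of all genes tested, but for Bin2 too the filter had fixed this in advance. Gmfg rose by 4.60 ± 0.64, or 5.39 without animal 1 and 4.00 without animal 4, Ly86 by 4.03 ± 0.32, Ptpn7 by 3.72 ± 0.52 and Arhgap9 by 3.46 ± 0.33. Of these, Gmfg and Ptpn7 also passed the filter through gel libraries alone.

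On the lower side the same ranking was led by Prima1, Epm2a, Amd1, Spock2, Gzmm, Gid4, Phospho1, Pdpr and Peli3, with the unnamed transcript Gm33543. The calls of Amd1, which encodes the decarboxylase of polyamine synthesis, and of Gm33543, at -1.85 and -1.66, were lost without animal 1 (edgeR adjusted p = 0.0694) and lost without animal 1, 2 or 4 (edgeR adjusted p = 0.0553, 0.0821 and 0.0906). With fibre scaling they were at -1.38 and -1.20 (edgeR adjusted p = 0.033 and 0.0462). Prima1, which encodes the membrane anchor of acetylcholinesterase, and Phospho1, a phosphatase of phosphocholine, fell by 2.79 ± 0.44 (SE) and 1.85 ± 0.20 (SE), or by 2.32 and 1.39 with fibre scaling (edgeR adjusted p = 0.00207 and 0.000336). Gid4 encodes the substrate receptor of a ubiquitin ligase that marks gluconeogenic enzymes in yeast. It stood at 21.4, 23.6, 39.6 and 17.3 CPM in gel and 58.2, 68.6, 82.8 and 60.7 CPM in PBS libraries, with no overlap, and fell by 1.46 ± 0.15 (SE) on the log2 scale (edgeR adjusted p = 0.000596), or by 0.99 with fibre scaling. Spock2, which encodes a secreted proteoglycan of the matrix, went from 2.43 ± 1.34 CPM (SD, n = 4) to 0.907 ± 0.617 CPM, a log2 fold change of -1.47 ± 0.37. Its call was lost without animal 1, 2 or 4 (edgeR adjusted p = 0.0831, 0.0726 and 0.0674) or without the animal block (0.0683) and ended with fibre scaling (edgeR adjusted p = 0.0679). Peli3 and Gzmm, at -1.58 ± 0.40 and -1.35 ± 0.30, behaved alike in this respect: the call of Peli3 was lost without animal 1, 2 or 4 (edgeR adjusted p = 0.0721, 0.0871 and 0.0795) and that of Gzmm lost without animal 2 or 4 (edgeR adjusted p = 0.0625 and 0.0522), and both ended with fibre scaling (edgeR adjusted p = 0.055 and 0.053). Peli3 encodes a ubiquitin ligase of Toll-like receptor signalling and Gzmm a protease of natural killer cells.

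Sequences upstream of some of these genes are shown to let a reader see what the promoters of genes that moved together hold. They come from RefSeq promoters of build GRCm38.p6, from 250 bases before to 50 bases after the transcription start, and are matched to the files by symbol; 10522 of the genes tested had an entry. The files used build mm39, so the coordinates belong to the promoter table only. The first motif searched, on both strands as for all motifs here, was GAGGAAGT, a site of PU.1, the transcription factor that defines myeloid cells. It occurred in 3.2% of all promoters in the table, in 5.05% of those of genes that rose, 2.12% of those of genes that fell and 2.69% of those of genes not called, with 1 promoter taken for each gene. 3 of the genes that rose and hold it are shown, with the motif or its reverse complement in capitals: Tlr1, a Toll-like receptor for bacterial lipoproteins (chr5:64933509-64933808, minus strand), Fgd2 (chr17:29360664-29360963, plus strand) and Cd300ld, an activating receptor of myeloid cells (chr11:114989837-114990136, minus strand).
Tlr1: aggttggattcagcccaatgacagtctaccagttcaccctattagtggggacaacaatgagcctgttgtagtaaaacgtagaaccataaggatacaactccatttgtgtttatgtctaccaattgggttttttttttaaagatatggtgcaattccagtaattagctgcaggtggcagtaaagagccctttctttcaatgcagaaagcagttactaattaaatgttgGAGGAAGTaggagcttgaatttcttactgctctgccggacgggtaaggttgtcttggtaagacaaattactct
Fgd2: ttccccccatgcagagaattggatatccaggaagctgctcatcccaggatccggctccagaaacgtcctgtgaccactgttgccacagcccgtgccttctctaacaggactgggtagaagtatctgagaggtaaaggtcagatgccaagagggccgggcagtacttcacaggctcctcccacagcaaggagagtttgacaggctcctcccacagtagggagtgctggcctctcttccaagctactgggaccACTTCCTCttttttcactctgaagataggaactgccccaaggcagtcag
Cd300ld: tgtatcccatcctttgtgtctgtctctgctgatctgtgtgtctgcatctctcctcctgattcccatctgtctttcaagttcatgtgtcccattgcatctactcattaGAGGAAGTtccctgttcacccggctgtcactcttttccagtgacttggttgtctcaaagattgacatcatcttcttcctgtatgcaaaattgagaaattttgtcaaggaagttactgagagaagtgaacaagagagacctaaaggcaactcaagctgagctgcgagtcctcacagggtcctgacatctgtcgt

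The second motif was GAAA, any 2 bases and GAAA again, the core of the interferon-stimulated response element, which occurred in 3.44% of all promoters, 4.51% of those of genes that rose, 1.66% of those of genes that fell and 2.78% of those of genes not called. It is shown in capitals in Cybb, the catalytic subunit of the phagocyte oxidase, with 3 matches (chrX:9469275-9469574, minus strand), and in Slfn8, an interferon-inducible gene (chr11:83020761-83021060, minus strand).
Cybb: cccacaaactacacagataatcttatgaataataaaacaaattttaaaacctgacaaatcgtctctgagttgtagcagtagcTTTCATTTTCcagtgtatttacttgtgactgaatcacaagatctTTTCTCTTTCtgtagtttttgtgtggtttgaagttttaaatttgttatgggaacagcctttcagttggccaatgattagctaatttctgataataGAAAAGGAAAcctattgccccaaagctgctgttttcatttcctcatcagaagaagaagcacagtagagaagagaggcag
Slfn8: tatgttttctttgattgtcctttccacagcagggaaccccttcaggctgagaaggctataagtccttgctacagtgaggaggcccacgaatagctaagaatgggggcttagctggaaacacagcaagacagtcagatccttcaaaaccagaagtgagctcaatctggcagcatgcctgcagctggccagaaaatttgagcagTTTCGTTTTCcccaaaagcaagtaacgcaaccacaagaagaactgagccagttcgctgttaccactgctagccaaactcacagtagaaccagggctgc

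TCACGTGA, the motif through which TFEB acts on lysosomal genes, did not show that order: 1.71% of genes that rose held it, 1.75% of those that fell and 2.01% of those not called, against 0.974% of all promoters. It is shown for Atp6v1a, a subunit of the lysosomal proton pump (chr16:44139210-44139509, minus strand). The last motif was TATTTATA preceded by C and followed by G, a site of the muscle factor MEF2, which overlaps the TATA box on the other strand. It occurred in 0.164% of all promoters, in 3 genes that rose (0.233%), in 9 that fell (0.831%) and in 0.147% of those not called. It is shown for Ckb, the creatine kinase of brain and of immature muscle, which rose (chr12:111672289-111672588, minus strand), and for Ppp1r3a, the muscle targeting subunit of the glycogen phosphatase (chr6:14755225-14755524, minus strand), and Kbtbd12, a Kelch protein of fibres (chr6:88627380-88627679, minus strand), which fell. The call of Kbtbd12 was lost without the animal block (edgeR adjusted p = 0.0788) and with fibre scaling, at -0.41 (edgeR adjusted p = 0.12). These matches describe letters in a window and were not tested as binding sites.
Atp6v1a: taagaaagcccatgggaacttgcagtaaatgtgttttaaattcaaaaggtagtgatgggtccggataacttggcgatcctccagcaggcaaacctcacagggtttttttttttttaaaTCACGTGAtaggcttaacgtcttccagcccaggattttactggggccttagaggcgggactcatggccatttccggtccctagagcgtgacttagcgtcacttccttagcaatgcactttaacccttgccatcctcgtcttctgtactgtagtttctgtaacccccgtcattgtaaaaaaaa
Ckb: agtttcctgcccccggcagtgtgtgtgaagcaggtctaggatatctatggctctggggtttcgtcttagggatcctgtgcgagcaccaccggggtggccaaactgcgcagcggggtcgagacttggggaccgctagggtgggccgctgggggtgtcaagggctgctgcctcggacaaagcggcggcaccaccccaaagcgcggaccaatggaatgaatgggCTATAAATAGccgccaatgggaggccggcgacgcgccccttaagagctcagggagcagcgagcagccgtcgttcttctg
Ppp1r3a: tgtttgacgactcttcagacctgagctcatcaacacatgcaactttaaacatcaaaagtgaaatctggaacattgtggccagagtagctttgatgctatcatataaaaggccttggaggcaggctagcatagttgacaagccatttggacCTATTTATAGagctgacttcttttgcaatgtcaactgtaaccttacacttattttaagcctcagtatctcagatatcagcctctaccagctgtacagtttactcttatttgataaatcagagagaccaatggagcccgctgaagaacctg
Kbtbd12: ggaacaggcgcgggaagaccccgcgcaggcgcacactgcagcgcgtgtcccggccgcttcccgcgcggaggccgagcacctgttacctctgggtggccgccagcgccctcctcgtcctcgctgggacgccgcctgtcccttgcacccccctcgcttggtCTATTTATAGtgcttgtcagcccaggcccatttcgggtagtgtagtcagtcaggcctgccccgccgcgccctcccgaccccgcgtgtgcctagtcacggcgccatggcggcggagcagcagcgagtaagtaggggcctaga

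Complement genes rose at the level of receptors and components alike. Complement is a cascade of plasma proteins that tags surfaces and releases the peptides C3a and C5a, which call in phagocytes. Of 23 members tested, 13 rose and 1 fell (rises 7 to 17, falls 1 to 1), with a median log2 fold change of 1.91; 7 rises and the fall kept their call whichever animal was left out, and 17 rose without animal 3. C3ar1, the receptor for C3a, stood at 28.6, 59.7, 1.34 and 57.6 CPM in gel libraries 1 to 4 and 0.690, 0.326, 0 and 1.08 CPM in PBS libraries. Each gel value was above every PBS value, animal 3 included. The log2 fold change of C3ar1 was 6.10 ± 0.34 (edgeR adjusted p = 6.59e-05). C5ar1, the receptor for C5a, rose by 4.08 ± 0.42 and Itgam and Itgax, the alpha subunits of complement receptors 3 and 4, by 3.36 ± 0.25 and 3.74 ± 0.50, the last being 3.10 without animal 2.

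The components C4b and Cfb, which act in the classical and the alternative pathway, rose by 3.09 ± 0.41 and 2.39 ± 0.34 (edgeR adjusted p = 0.00221 and 0.00278). C4b stood at 10.2, 5.48, 3.72 and 7.19 CPM in gel and 0.887, 0.652, 1.14 and 0.359 CPM in PBS libraries, so that the gel leg of animal 3 was above all PBS legs. The regulators on host cells Cd46 and Cd55 were not called, at 0.16 and 0.32, though Cd55 passed without animal 1 at 0.70 (edgeR adjusted p = 0.0368). The 1 member that fell was Clu, which encodes clusterin, an inhibitor of the terminal complex: it went from 69.8 ± 6.85 CPM to 33.03 ± 11.1 CPM, a log2 fold change of -1.13 ± 0.16 (edgeR adjusted p = 0.00284), or -0.66 with fibre scaling (edgeR adjusted p = 0.00984).

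Among Fc receptors and the kinases and adaptors behind them 13 of 19 tested members rose and 0 fell (rises 8 to 18, falls 0 to 0), with a median of 3.17. 8 of these calls were kept whichever animal was left out, and 18 members were called without animal 3. Fc receptors bind antibody-coated particles, signal through an adaptor such as Tyrobp and activate Src-family kinases, Syk and phospholipase C. Tyrobp rose by 5.68 ± 0.59, the Src-family kinase Fgr by 4.11 ± 0.57, the kinase Btk by 4.24 ± 0.48 and the adaptor Lcp2 by 3.04 ± 0.34. Vav1, an exchange factor that links these kinases to Rac, rose by 4.19 ± 0.62, or 4.80 without animal 3. For Btk the gel libraries stood at 2.11, 7.13, 0.853 and 4.03 CPM and the PBS libraries at 0.0986, 0.434, 0 and 0.240 CPM, without overlap (edgeR adjusted p = 0.000892). Btk passed the count filter through its gel libraries alone, so the lack of overlap was fixed in advance. The receptor subunit genes Fcgr3 and Fcer1g missed the threshold, at 4.33 ± 1.08 (edgeR adjusted p = 0.0603) and 4.22 ± 1.02 (edgeR adjusted p = 0.0561). Both passed without animal 3, at edgeR adjusted p = 0.00212 and edgeR adjusted p = 9.73e-06. The receptor genes Fcgr1 and Fcgr4 did not meet the count filter, with 8 and 2 counts in gel library 3. Without the filter they were higher by 6.67 and 6.06 (edgeR adjusted p = 3.67e-10 and 1.37e-06).

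Pattern-recognition genes rose in part. Of 23 tested members 15 rose, 0 fell (rises 6 to 16, falls 0 to 0) and the median was 1.45; 6 of the rises were kept in all 4 fits with an animal left out. Tlr1 stood at 14.2, 14.8, 0.914 and 15.5 CPM in gel and 0.246, 0.760, 0.114 and 0.719 CPM in PBS libraries. The gel leg of animal 3 was again the lowest of its group and above each PBS leg. Tlr1 rose by 4.60 ± 0.37 (edgeR adjusted p = 0.000163) and Clec7a, the receptor for fungal beta-glucan also called dectin-1, by 5.20 ± 0.30 (edgeR adjusted p = 5.75e-05). Cd14, a co-receptor for endotoxin, rose by 2.44 ± 0.43. Sensors and adaptors present in most cell types were not called, among them Tlr3 at 0.31 and Nod1 at 0.11; Nod1 passed with fibre scaling, at 0.58 (edgeR adjusted p = 0.03).

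The proteases of the inflammasome, a complex that matures interleukins and opens membrane pores, were among the rises. Casp1 stood at 5.58, 7.27, 1.16 and 8.46 CPM in gel and 0.443, 0.543, 0.114 and 0.479 CPM in PBS libraries. It rose by 3.76 ± 0.34 (edgeR adjusted p = 0.000293). Since Casp1 passed the count filter through its gel libraries alone, its lack of overlap was fixed in advance. Casp4, which binds cytosolic endotoxin, rose by 2.69 ± 0.31 and the pore protein gene Gsdmd by 1.57 ± 0.29. The adaptor gene Pycard was higher by 3.04 ± 0.62, a call lost without animal 1 or 4 (edgeR adjusted p = 0.0639 and 0.071), and by 3.68 without animal 3. Il18, a substrate of caspase-1, was at 3.06 ± 0.79, or 3.76 without animal 1 and 2.30 without animal 2, and its call was lost without animal 1, 2 or 4 (edgeR adjusted p = 0.0501, 0.0699 and 0.075) or without the animal block (0.0556). Il18bp, which encodes the secreted inhibitor of interleukin-18, rose by 1.37 ± 0.24 (edgeR adjusted p = 0.00556).

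The phagocyte NADPH oxidase makes superoxide in phagosomes from a membrane pair, Cybb and Cyba, and cytosolic subunits such as Ncf1, Ncf4 and Rac2. These 5 genes rose, and Nox4, the oxidase of non-phagocytic cells, was at 1.10 ± 0.45 (edgeR adjusted p = 0.1), or 1.57 with fibre scaling (edgeR adjusted p = 0.0116). Ncf4 stood at 10.1, 12.4, 1.65 and 13.6 CPM in gel and 0.591, 0.434, 0.229 and 0.359 CPM in PBS libraries, and Rac2 at 40.2, 51.5, 2.44 and 50.02 CPM and 2.56, 2.06, 0.343 and 1.32 CPM. The groups did not overlap for Ncf4, and for Rac2 the gel leg of animal 3 lay just below the highest PBS leg. The log2 fold changes were 4.40 ± 0.38 for Ncf4, 4.41 ± 0.30 for Rac2, 3.96 ± 0.45 for Cybb and 3.53 ± 0.35 for Ncf1. The call of Cyba, at 2.57, was lost without animal 1, 2 or 4 (edgeR adjusted p = 0.173, 0.129 and 0.161).

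Rises were counted in 3 families of myeloid surface receptors. Of 6 tested MS4A genes, which encode membrane proteins, 5 rose (rises 3 to 5, falls 0 to 0), among them Ms4a6c by 3.89 ± 0.39 and Ms4a6b by 5.43 ± 0.61, or 6.25 without animal 2. The family has 21 genes in the files, and a member low in PBS, such as Ms4a6b, passed the count filter through gel libraries alone. The share that rose is thus one of tested genes and not of the family. Of 6 CD300 and Siglec receptor genes 5 rose (rises 4 to 5, falls 0 to 1), with Cd300ld going from 0.722 ± 0.334 to 13.4 ± 8.07 CPM (4.11 ± 0.29, edgeR adjusted p = 9.40e-05) and Cd300a rising by 3.09 ± 0.38. Cd300lg, a member known from endothelial cells, was at -0.57 and was not called, but passed without animal 1 at -0.84 (edgeR adjusted p = 0.0314). Among 15 C-type lectin genes 5 rose and 1 fell (rises 3 to 6, falls 1 to 1). The rises included the dendritic and macrophage immunoreceptors Clec4a2 and Clec4a3, at 3.54 ± 0.42 and 3.91 ± 0.61, and the fall was Clec16a, a gene of endosomal traffic and mitophagy, at -1.02 ± 0.18 (edgeR adjusted p = 0.00528) or -0.55 with fibre scaling (edgeR adjusted p = 0.0283).

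Genes of the interferon-inducible Schlafen and Ifi200 families rose, 9 of 13 tested (rises 4 to 12, falls 0 to 0) with a median of 2.89. Within the animals the family median was 2.52, 3.81, 0.46 and 3.92, so animal 3 had little of it. Slfn4 rose by 3.11 ± 0.51, Slfn8 by 3.93 ± 0.55, or 4.68 without animal 1 and 3.34 without animal 2, and Ifi203 by 1.28 ± 0.20. The guanylate-binding and immunity GTPases, another interferon-inducible family, had 1 of 15 members higher (rises 0 to 4, falls 0 to 0), with a median of 0.43. Stat2, the transcription factor specific to type I and III interferon signalling, rose by 1.29 ± 0.16 (edgeR adjusted p = 0.00134). Stat5b, which transmits growth hormone signals, fell by 0.84 ± 0.15 (SE), a call that ended with fibre scaling (edgeR adjusted p = 0.102). Of 37 proteasome subunits 1 rose and 2 fell (rises 1 to 2, falls 0 to 3). The 1 that rose was Psmb8, a catalytic subunit of the immunoproteasome, at 1.56 ± 0.29 (edgeR adjusted p = 0.00689), with 16.1, 15.5, 4.14 and 16.9 CPM in gel and 4.24, 7.06, 2.63 and 3.11 CPM in PBS libraries, so that the gel leg of animal 3 lay among the PBS legs. Psmb5, which Psmb8 replaces in that particle, was at 0.19 and not called, but with fibre scaling it was higher at 0.66 (edgeR adjusted p = 0.00859).

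Cytokine and chemokine receptors rose less firmly. Of 24 interleukins and receptors 13 rose and 1 fell (rises 2 to 17, falls 0 to 1), but only 1 of these rises, that of Il18bp, was kept in all 4 fits with an animal left out. Ccr2, the receptor that draws monocytes from blood, was at 1.85 ± 0.42, a call lost without animal 2 or 4 (edgeR adjusted p = 0.0665 and 0.0848). Cxcr4, the receptor for Cxcl12, was at 1.26 ± 0.25, a call lost without animal 4 (edgeR adjusted p = 0.0608) or without the animal block (0.0624). Of 14 chemokine ligands tested 6 rose (rises 1 to 8, falls 0 to 1), and Ccl27a, a ligand best known from skin, was the 1 kept throughout (0.77 ± 0.14, edgeR adjusted p = 0.00637).

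**Figure D2:**
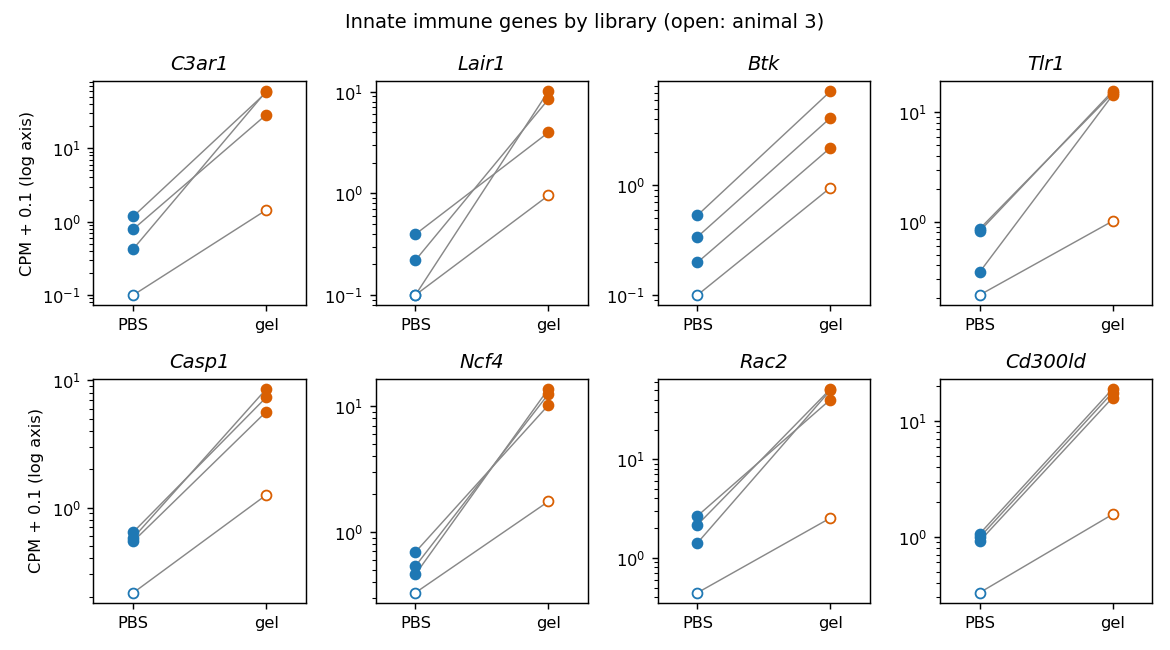
Level of 8 innate immune genes in each of the 8 libraries, in CPM plus 0.1 on a log axis, with gel libraries as orange and PBS libraries as blue points and a line joining the legs of 1 animal. Every line rises from PBS to gel, and both legs of animal 3 (open symbols) have the lowest or joint lowest values of their group. For genes that passed the count filter through gel libraries alone, such as Lair1, Btk and Casp1, the filter fixed the rise of every line in advance.

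Many genes of these families had no test because they were close to 0 in every PBS library and in gel library 3. The filter asked for enough counts in at least 4 libraries, and 955 list or family members did not meet it. A gene near 0 in PBS muscle could meet it only through all 4 gel libraries. Shares of rises in the immune families above therefore hold for tested members, a set that the filter tilts towards genes high in gel. Without the filter, 61 of them were called higher and 0 lower. Fcgr1, the high-affinity Fc receptor gene, had 289, 569, 8 and 727 counts in gel libraries 1 to 4 and 4, 4, 0 and 4 in PBS libraries. The scavenger and sialic acid receptor gene Siglec1 had 145, 308, 4 and 365 and 10, 0, 0 and 8 counts, and Tlr13, a sensor of bacterial ribosomal RNA, 182, 449, 8 and 472 and 4, 4, 0 and 4. For each of the 3, gel library 3 lay within or near the PBS values. The chemokine gene Ccl8 had 134, 150, 4 and 188 and 0, 6, 0 and 2 counts, Ccl2, which attracts monocytes, 47, 158, 7 and 198 and 7, 6, 2 and 0, and Arg1, an arginase of macrophages, 11, 117, 3 and 31 and 3, 7, 5 and 0. In gel library 3 these genes had few counts, at most 8, and by raw counts only Fcgr1 and Tlr13 lay above every PBS library there. In CPM, Ccl2 did so too, at 0.427 in gel library 3 against 0.345 in PBS library 1, the highest of its group. No test within an animal was run. All of these genes were chosen after their values were seen.

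Lysosomal genes rose unevenly. Of 46 lysosomal hydrolases and membrane proteins 19 rose and 3 fell (rises 4 to 31, falls 0 to 4), with a median of 0.75 and of 0.00 within animal 3. Only 3 rises were kept whichever animal was left out, and 31 genes rose without animal 3. The 3 were Galns, which removes sulfate from keratan sulfate, at 2.05 ± 0.35, the phospholipase Pla2g15, at 1.67 ± 0.23, and Naglu, which degrades heparan sulfate, at 1.23 ± 0.24. Pla2g15 stood at 9.91, 10.7, 5.06 and 14.2 CPM in gel and 3.25, 3.86, 1.94 and 3.05 CPM in PBS libraries, without overlap (edgeR adjusted p = 0.00249).

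The V-ATPase is the proton pump that acidifies lysosomes. Of 18 subunits 2 rose (rises 1 to 3, falls 0 to 1), a share close to that of all genes, and the median was 0.22. Atp6v1a, a catalytic subunit, rose from 11.5 ± 3.70 CPM to 20.98 ± 5.89 CPM (0.87 ± 0.16, edgeR adjusted p = 0.00669). Atp6v0d2, an isoform of osteoclasts and macrophages, stood at 43.6, 57.5, 1.28 and 55.3 CPM in gel and 0.197, 0, 0.229 and 0.719 CPM in PBS libraries, with a log2 fold change of 7.04 ± 0.89, or 6.32 without animal 2 and 7.66 without animal 4. Its call was lost without animal 1 or 4 (edgeR adjusted p = 0.0714 and 0.0562), whereas its widely expressed relative Atp6v0d1 was at 0.28 ± 0.14 (edgeR adjusted p = 0.163), or 0.75 with fibre scaling (edgeR adjusted p = 0.00522). With fibre scaling 14 subunits were called higher. Of 11 cathepsins, the lysosomal proteases, 4 rose (rises 0 to 8, falls 0 to 0), and 0 calls were kept in all 4 fits with an animal left out.

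Single genes of lipid and iron handling differed. Abca1, the cholesterol efflux transporter, stood at 30.8, 45.5, 21.2 and 55.9 CPM in gel and 14.1, 11.1, 12.2 and 18.1 CPM in PBS libraries and rose by 1.40 ± 0.20 (edgeR adjusted p = 0.00313). G0s2, an inhibitor of triglyceride lipase, rose by 0.91 ± 0.14 and the lipase relative Pnpla3 by 1.14 ± 0.22. Pnpla2, the lipase that G0s2 inhibits, was lower by 0.78 ± 0.21 (SE), a call lost without animal 2 or 4 (edgeR adjusted p = 0.138 and 0.132) or without the animal block (0.054) and ended by fibre scaling (edgeR adjusted p = 0.243). Of 26 iron and haem genes 4 rose and 3 fell (rises 1 to 7, falls 0 to 4), shares close to those of all genes. Blvrb, a biliverdin reductase of the last step of haem breakdown, rose by 1.79 ± 0.26 (edgeR adjusted p = 0.00396), and the ferritin heavy chain gene Fth1 was level at 0.02 ± 0.17 (edgeR adjusted p = 0.937). Cholesterol synthesis genes showed 1 rise and 2 falls in 21 (rises 0 to 2, falls 0 to 2).

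Actin regulators rose widely, 22 of 41 with 1 fall (rises 8 to 32, falls 0 to 1) and a median of 1.29; the median within animal 3 was 0.13. Large rises were in genes known from blood cells: Myo1f, a myosin of leukocytes, by 4.62 ± 0.30 (edgeR adjusted p = 6.59e-05), Nckap1l, the blood cell subunit of the WAVE complex, by 4.39 ± 0.42 and Was, the Wiskott-Aldrich gene, by 2.29 ± 0.35. Myo1f stood at 17.03, 35.7, 1.34 and 40.7 CPM in gel and 0.739, 1.30, 0.229 and 1.20 CPM in PBS libraries, with no overlap. Tmsb10, an actin-monomer-binding peptide also made by fibroblasts and immature muscle, rose from 170.0 ± 49.4 to 625 ± 152 CPM (1.89 ± 0.19, edgeR adjusted p = 0.000508). The widely expressed actin genes Pfn1, Rhoa and Cdc42 were at 0.47, 0.30 and 0.17 and were not called, but with fibre scaling they were higher by 0.94, 0.77 and 0.64 (edgeR adjusted p = 0.00384, 0.0058 and 0.0232). Of 16 annexins and S100 proteins, calcium-dependent membrane-binding proteins used in membrane repair, 9 rose and 1 fell (rises 3 to 9, falls 0 to 1). Anxa4 rose by 2.04 ± 0.25, S100a10 by 1.38 ± 0.18 and S100a6 by 1.40 ± 0.23.

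Small GTPases of vesicle traffic split by member. Of 48 Rab genes 10 rose and 9 fell (rises 6 to 12, falls 0 to 9), with 6 rises and 0 falls kept whichever animal was left out. Rab7b, a late-endosomal Rab of immune cells, went from 1.45 ± 0.535 to 15.1 ± 11.1 CPM (3.08 ± 0.40, edgeR adjusted p = 0.00335), Rab8b rose by 1.63 ± 0.24 and Rab43 by 1.21 ± 0.17. Rab7, the general late-endosomal member, was lower by 0.46 ± 0.15 (SE), a call lost without animal 1, 2 or 4 (edgeR adjusted p = 0.114, 0.191 and 0.172) or without the animal block (0.0504), and was at 0.00 with fibre scaling (edgeR adjusted p = 0.986). With fibre scaling 23 Rab genes were higher and 0 lower.

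Tubulins and kinesins, the tracks and motors of microtubule transport, also had members in both directions. Tuba4a and Tuba8, alpha-tubulins of mature muscle and heart, fell by 1.34 ± 0.22 (SE) and 1.18 ± 0.22 (SE), and by 0.87 and 0.71 with fibre scaling (edgeR adjusted p = 0.00671 and 0.0154). Tuba4a stood at 338, 415, 569.8 and 286 CPM in gel and 864, 1072, 888 and 1140.3 CPM in PBS libraries. Tubb2b and Tuba1c, tubulins of immature cells, were higher by 1.53 ± 0.44 and 1.22 ± 0.30, with calls lost without animal 1, 3 or 4 (edgeR adjusted p = 0.0763, 0.0586 and 0.152) and lost without animal 1, 2 or 4 (edgeR adjusted p = 0.056, 0.096 and 0.113) or without the animal block (0.0597) respectively. Among 28 kinesins 7 rose and 6 fell (rises 2 to 9, falls 1 to 6). Kif23, a motor of cell division, rose by 3.29 ± 0.51 (edgeR adjusted p = 0.00379) and Kif5a, a motor known from neurons, by 2.41 ± 0.41, while Kif1c, a vesicle motor, fell by 1.27 ± 0.19 (SE; edgeR adjusted p = 0.00314), or by 0.80 with fibre scaling (edgeR adjusted p = 0.00551).

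Genes of mitosis and of DNA replication were counted as separate lists. Of 30 chromosome segregation and mitosis genes 20 rose and 0 fell (rises 6 to 23, falls 0 to 0), with a median of 1.66. Of 42 replication and nucleotide synthesis genes 8 rose and 2 fell (rises 3 to 14, falls 0 to 4), with a median of 0.49. The difference between the lists was not tested. Birc5, which encodes survivin, a part of the chromosomal passenger complex, stood at 2.05, 5.19, 1.22 and 5.52 CPM in gel and 0.197, 0.217, 0.457 and 1.20 CPM in PBS libraries and rose by 2.78 ± 0.51 (edgeR adjusted p = 0.00644). The mitotic kinase gene Plk1 rose by 1.98 ± 0.36, the replication initiation gene Mcm10 by 3.39 ± 0.66, or 4.35 without animal 4, and Uhrf1, which maintains DNA methylation, by 2.19 ± 0.38. The sliding clamp gene Pcna was at 0.28 ± 0.24 (edgeR adjusted p = 0.426), or 0.75 with fibre scaling (edgeR adjusted p = 0.044). Targets of the p53 pathway showed 3 rises and 3 falls in 31 (rises 1 to 4, falls 1 to 3), and the cell cycle inhibitor gene Cdkn1a was at 0.50 ± 0.36 (edgeR adjusted p = 0.359).

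**Figure D3:**
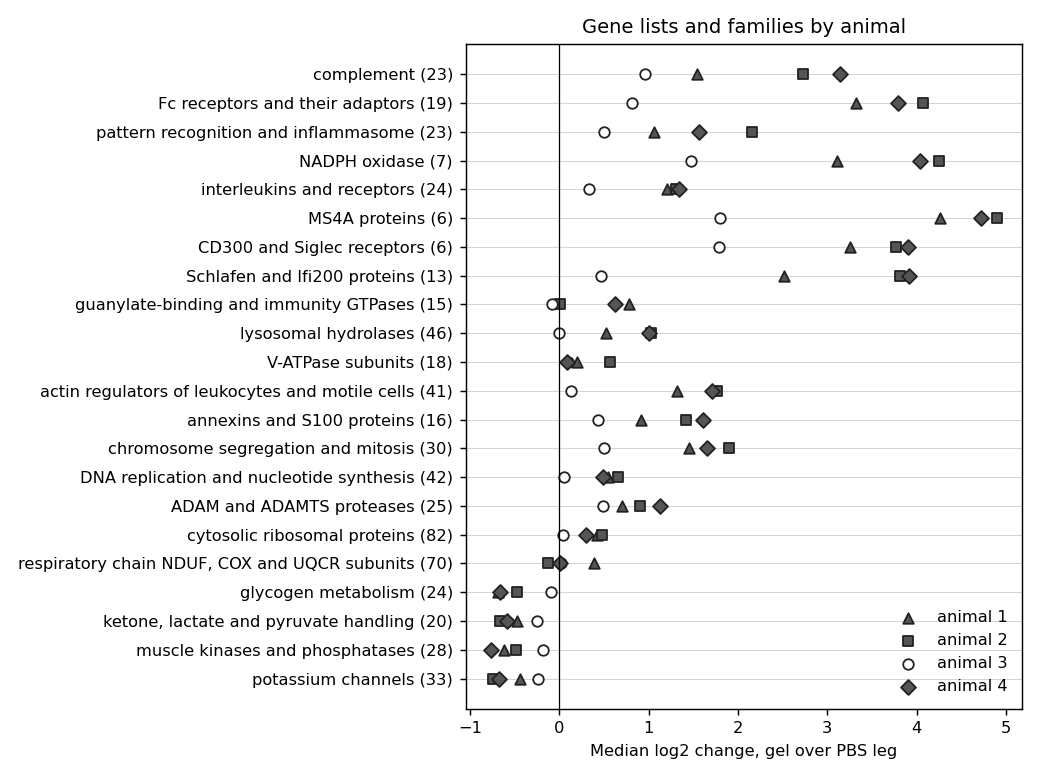
Median log2 change of gel over PBS leg within each animal (1 symbol per animal) for 22 lists and families, with the number of tested genes in brackets and a vertical line at 0. Immune and division families lie to the right in animals 1, 2 and 4 and nearer to 0 in animal 3 (open circles). The glycogen and the ketone, lactate and pyruvate lists, muscle kinases and phosphatases and potassium channels lie to the left. Respiratory chain subunits do not, at 0.38, -0.13, 0.01 and 0.01 in animals 1 to 4.

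Of 25 ADAM and ADAMTS proteases, which shed surface proteins or cut proteoglycans and procollagen, 11 rose and 1 fell (rises 4 to 14, falls 1 to 1). Adam19, known from muscle and heart development, stood at 17.7, 18.5, 6.71 and 24.1 CPM in gel and 9.71, 8.42, 2.29 and 11.02 CPM in PBS libraries. Each gel leg was above the PBS leg of its animal, while the groups overlapped. It rose by 1.15 ± 0.17 (edgeR adjusted p = 0.00326), a call lost without the animal block (edgeR adjusted p = 0.149). Adamts14, a procollagen-processing enzyme, rose by 1.72 ± 0.30, and Adam9 fell by 1.18 ± 0.22 (SE), or by 0.71 with fibre scaling (edgeR adjusted p = 0.0301). Of 8 C1q/TNF family genes 4 rose and 1 fell (rises 1 to 4, falls 0 to 0), and of 13 serpins, most of them protease inhibitors, 5 rose and 1 fell (rises 2 to 6, falls 0 to 1). C1qtnf3, a secreted C1q relative, rose from 1.05 ± 0.638 to 7.08 ± 5.08 CPM (2.68 ± 0.35, edgeR adjusted p = 0.00191). Serpina3n, a protease inhibitor, rose by 2.18 ± 0.41 and the collagen chaperone gene Serpinh1 by 1.07 ± 0.20.

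In the Wnt pathway 3 of 32 genes rose and 4 fell (rises 1 to 4, falls 2 to 5), and 10 were higher and 1 lower with fibre scaling. Sfrp2, which encodes a secreted Wnt modulator, stood at 3.30, 1.70, 0.731 and 7.41 CPM in gel and 0.394, 0.217, 0 and 0 CPM in PBS libraries. It rose by 4.20 ± 0.79 (edgeR adjusted p = 0.00825), or 5.06 without animal 1 and 3.31 without animal 4. Since Sfrp2 passed the count filter through its gel libraries alone, its lack of overlap was fixed in advance. The ligand gene Wnt4 fell by 1.33 ± 0.24 (SE) and by 0.86 with fibre scaling (edgeR adjusted p = 0.00787 and 0.0142). The receptor gene Fzd4 fell by 0.78 ± 0.15 (SE), a call that ended with fibre scaling (edgeR adjusted p = 0.199). Among BMP and activin pathway genes 2 of 26 rose and 6 fell (rises 0 to 2, falls 2 to 6), and 5 were higher and 2 lower with fibre scaling. Mstn, the muscle growth inhibitor myostatin, stood at 2.39, 7.65, 6.22 and 5.67 CPM in gel and 11.1, 12.8, 14.3 and 13.2 CPM in PBS libraries, with 16.2 ± 1.39 CPM in uninjured muscle. Its log2 fold change was -1.31 ± 0.24 (edgeR adjusted p = 0.00626), or -0.85 with fibre scaling (edgeR adjusted p = 0.0231). Notch2, a receptor of the Notch pathway, rose by 1.20 ± 0.16 and Tead3, a DNA-binding partner of YAP, by 0.76 ± 0.14. Among 9 fibroblast growth factor and receptor genes Fgfr4, a receptor of myoblasts, rose by 1.39 ± 0.19 (edgeR adjusted p = 0.00221) and Fgf11 by 1.27 ± 0.19. Of 29 angiogenic factors and receptors 1 rose and 5 fell (rises 0 to 2, falls 0 to 5), and 7 were higher and 1 lower with fibre scaling. The vascular growth factor gene Vegfa was at 0.12 ± 0.20 (edgeR adjusted p = 0.705), or 0.58 with fibre scaling (edgeR adjusted p = 0.0281). Flt1, a receptor for that factor, was lower at -1.15 ± 0.25, a call lost without animal 4 (edgeR adjusted p = 0.0772) and without the animal block (edgeR adjusted p = 0.078), and was at -0.68 with fibre scaling (edgeR adjusted p = 0.0171).

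Amino-acid transporters rose in part, 6 of 25 with 2 falls (rises 3 to 7, falls 0 to 2). Slc38a1, a glutamine transporter, stood at 4.78, 5.85, 2.93 and 7.85 CPM in gel and 0.591, 0.217, 0.457 and 0.599 CPM in PBS libraries, so animal 3 again lay lowest within a group that did not overlap PBS. Slc38a1 rose by 3.47 ± 0.39 (edgeR adjusted p = 0.000859), its relative Slc38a6 by 1.56 ± 0.23 and Slc38a9, a lysosomal arginine sensor, by 0.77 ± 0.16. Slc38a2, a further glutamine carrier, was at 0.57 ± 0.14, a call lost without animal 2 or 4 (edgeR adjusted p = 0.0689 and 0.0826).

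Of the lists of muscle energy metabolism, those of glycogen, pyruvate, amino-acid breakdown and mitochondrial regulators held more falls than rises, and that of the respiratory chain held no fall. Of 24 glycogen genes 9 fell and 2 rose (rises 1 to 3, falls 1 to 13), with a median of -0.47. With fibre scaling 1 was lower and 4 higher, and the median was -0.00. The gene that stayed lower was Epm2a, whose product, laforin, removes phosphate from glycogen. It stood at 1.20, 3.35, 4.51 and 2.03 CPM in gel and 16.8, 14.9, 12.2 and 9.52 CPM in PBS libraries, with no overlap, and at 6.48 ± 0.927 CPM (SD, n = 4) in uninjured muscle, between the 2 groups. With fibre scaling it was lower by 1.87 (edgeR adjusted p = 0.00181). Ppp1r3a and the glycogen primer gene Gyg were at -0.72 ± 0.19 and -0.78 ± 0.17, calls lost without animal 1, 2 or 4 (edgeR adjusted p = 0.0993, 0.0729 and 0.115) and lost without animal 1, 2 or 4 (edgeR adjusted p = 0.0549, 0.0562 and 0.0531) respectively. Both were lost with fibre scaling, at edgeR adjusted p = 0.353 and 0.203.

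Of 20 ketone, lactate and pyruvate genes 8 fell and 1 rose (rises 0 to 1, falls 3 to 9), and 3 were lower and 2 higher with fibre scaling. Pcx, pyruvate carboxylase, stood at 19.2, 20.1, 32.3 and 19.03 CPM in gel and 52.97, 46.5, 49.3 and 33.8 CPM in PBS libraries and fell by 1.02 ± 0.16 (SE; edgeR adjusted p = 0.00401), or by 0.56 with fibre scaling (edgeR adjusted p = 0.0261). Pdpr, a regulatory subunit of the pyruvate dehydrogenase phosphatase, stood at 1.88, 3.59, 2.74 and 2.07 CPM in gel, 14.2, 12.9, 8.63 and 5.45 CPM in PBS and 4.82 ± 1.65 CPM in uninjured libraries, and fell by 1.94 ± 0.28 (SE), or by 1.47 with fibre scaling (edgeR adjusted p = 0.00175). Of 30 genes for branched-chain and other amino-acid breakdown 12 fell and 1 rose (rises 0 to 1, falls 1 to 14). Of these falls 0 were kept in all fits with an animal left out. Fibre scaling left 0 members lower and 3 higher. Respiratory chain subunits did not follow: of 70, 0 fell and 5 rose (rises 0 to 4, falls 0 to 1), with a median of 0.10.

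Among the regulators of mitochondrial genes 8 of 22 fell and 1 rose (rises 0 to 1, falls 2 to 9), and 3 were lower and 6 higher with fibre scaling. Perm1, a muscle partner of PGC-1 and the estrogen-related receptors, stood at 149, 122, 231 and 107 CPM in gel and 290.3, 395, 336 and 219.9 CPM in PBS libraries with the gel leg of animal 3 within the PBS range, and fell by 1.05 ± 0.19 (SE; edgeR adjusted p = 0.00632). Rxra, the shared partner of nuclear receptors, fell by 1.11 ± 0.17 (SE). With fibre scaling the falls were 0.59 and 0.64 (edgeR adjusted p = 0.0225 and 0.0159). Ppargc1a, which encodes PGC-1 alpha itself, was at -0.54 ± 0.21 (edgeR adjusted p = 0.0918) and passed without animal 3, at -0.81 (edgeR adjusted p = 0.00663). Klf15, a glucocorticoid-responsive regulator of amino-acid breakdown in muscle, fell by 0.96 ± 0.17 (SE; edgeR adjusted p = 0.00523), or by 0.50 with fibre scaling (edgeR adjusted p = 0.0422).

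Muscle kinases and phosphatases were lower in 14 of 28 cases and higher in 1 (rises 1 to 1, falls 5 to 15), and 5 falls were kept whichever animal was left out. With fibre scaling 6 were lower and 3 higher. Prkab2, the AMP-activated kinase subunit typical of muscle, stood at 47.9, 95.3, 114 and 61.9 CPM in gel and 227, 215, 170.3 and 163 CPM in PBS libraries. Its log2 fold change was -1.34 ± 0.25 (edgeR adjusted p = 0.00802), or -0.87 with fibre scaling (edgeR adjusted p = 0.0201). Prkar2a, a regulatory subunit of protein kinase A, fell by 1.08 ± 0.19 (SE), and the dual-specificity phosphatase genes Dusp26 and Dusp13 by 1.20 ± 0.22 (SE) and 1.08 ± 0.20 (SE). With fibre scaling these 3 were lower by 0.61, 0.74 and 0.61 (edgeR adjusted p = 0.0278, 0.0139 and 0.0261). Srpk3, a splicing kinase of muscle under MEF2 control, was the member that rose, from 41.2 ± 3.44 to 79.3 ± 12.8 CPM (0.94 ± 0.15, edgeR adjusted p = 0.00453).

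Potassium channels fell in 11 of 33 cases and rose in 2 (rises 1 to 3, falls 3 to 12), with a median of -0.56. Under fibre scaling 3 were lower and 7 higher, and the median was -0.095. Kcnc4, a fast voltage-gated channel, stood at 71.1, 74.9, 103 and 40.9 CPM in gel and 211, 182, 213 and 171 CPM in PBS libraries, with no overlap, and fell by 1.49 ± 0.18 (SE; edgeR adjusted p = 0.00137). Kcng4, a modifier of such channels, and Kcnj12, an inward rectifier, fell by 1.22 ± 0.21 (SE) and 1.04 ± 0.19 (SE). With fibre scaling these 3 remained lower, by 1.02, 0.75 and 0.57 (edgeR adjusted p = 0.0016, 0.00951 and 0.0316). Kcnh2, the ERG channel gene, which is known from heart and from wasting muscle, rose by 1.49 ± 0.26 (edgeR adjusted p = 0.00546).

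Signalling and protein synthesis genes on the lower side included Akt2 and Foxo4, the insulin-responsive kinase and a transcription factor that AKT kinases inactivate. Akt2 stood at 118, 143, 220.2 and 127 CPM in gel and 297, 308, 351 and 317 CPM in PBS libraries and fell by 1.11 ± 0.17 (SE; edgeR adjusted p = 0.00326), while its relative Akt1 was at 0.14 ± 0.17 (edgeR adjusted p = 0.563). With fibre scaling Akt2 was at -0.64 (edgeR adjusted p = 0.0156) and Akt1 at 0.61 (edgeR adjusted p = 0.019). Foxo4 fell by 1.26 ± 0.18 (SE), or by 0.79 with fibre scaling (edgeR adjusted p = 0.00428), and Grb10, an adaptor that restrains insulin receptor signalling, rose by 1.19 ± 0.16. Of 53 initiation factors 10 fell and 1 rose (rises 0 to 2, falls 1 to 12), of 34 tRNA synthetases 5 fell and 0 rose (rises 0 to 0, falls 0 to 5), and of 37 DnaJ co-chaperones 9 fell and 1 rose (rises 0 to 0, falls 3 to 10). With fibre scaling 2, 0 and 2 members were lower and 12, 1 and 10 higher. Eif4g1, the scaffold of the cap-binding complex, fell by 1.11 ± 0.20 (SE; edgeR adjusted p = 0.00586) and Dnajc27 by 1.45 ± 0.21 (SE), and with fibre scaling they were lower by 0.64 and 0.98 (edgeR adjusted p = 0.0228 and 0.00452). Ubiquitin ligase genes of muscle atrophy were lower as well. Fbxo32, called atrogin-1, stood at 53.1, 53.4, 92.5 and 52.999 CPM in gel and 134, 108, 133 and 184 CPM in PBS libraries and fell by 1.17 ± 0.20 (SE; edgeR adjusted p = 0.00528), or was at -0.70 with fibre scaling (edgeR adjusted p = 0.0195). Trim63, called MuRF1, was lower by 0.57 ± 0.15 (SE), a call lost without animal 1, 2 or 4 (edgeR adjusted p = 0.0693, 0.0669 and 0.12) and with fibre scaling (edgeR adjusted p = 0.689).

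**Figure D4:**
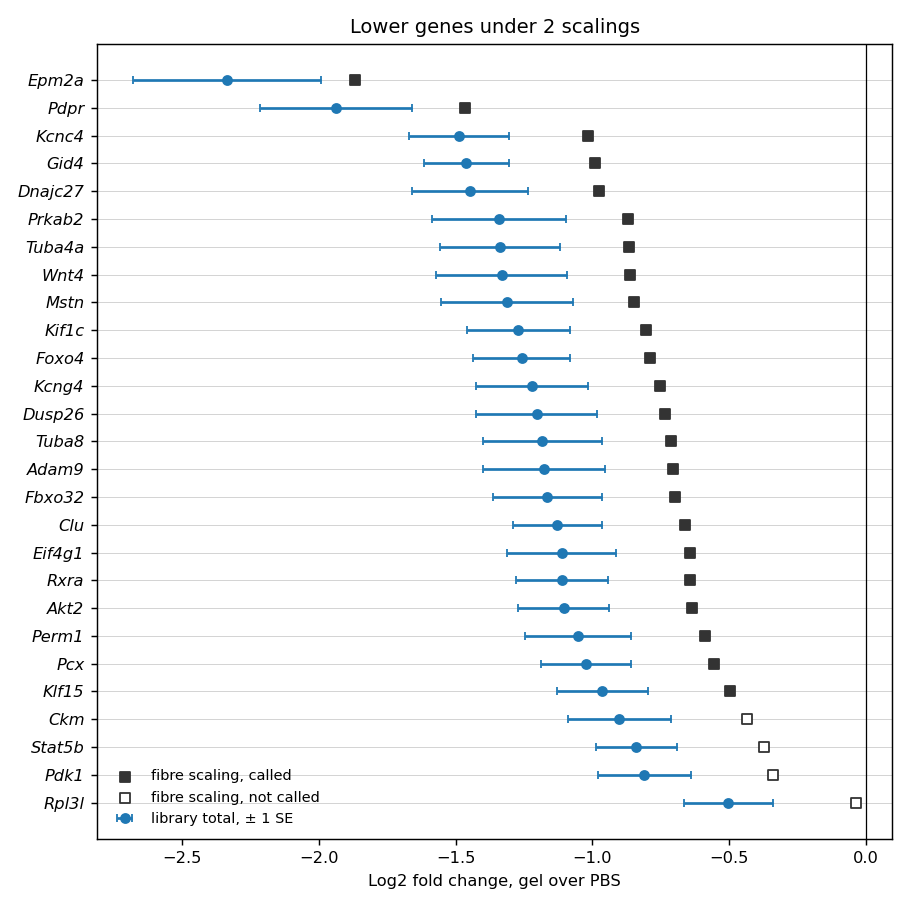
Log2 fold change of gel over PBS for 27 genes on the lower side under 2 scalings. Blue circles, with bars of 1 SE, are scaled to the library total adjusted by TMM, and squares to 16 adult fibre genes. The genes were picked from those named in the text, and several named falls that ended with fibre scaling are not drawn. Fibre scaling moves each point to the right by about the same amount. Of the points drawn, 27 stay to the left of 0, of which 23 (filled squares) pass the test there. Over all genes tested, 1327 fell in the first fit and 157 were lower with fibre scaling.

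Several gene families held members that moved in opposite directions. Creatine kinase is made by Ckm in mature fibres and by Ckb in brain and immature muscle. Ckb stood at 15.8, 18.98, 6.03 and 21.3 CPM in gel and 5.12, 5.86, 3.43 and 3.29 CPM in PBS libraries and rose by 1.72 ± 0.27 (edgeR adjusted p = 0.00461). Ckm was lower by 0.90 ± 0.19 (SE), a call lost without animal 1 or 2 (edgeR adjusted p = 0.0528 and 0.0661) and with fibre scaling (edgeR adjusted p = 0.0792). Both enzymes of creatine synthesis were higher, Gamt by 1.64 ± 0.24 (edgeR adjusted p = 0.00459) and Gatm by 1.60 ± 0.36, whose call was lost without animal 4 (edgeR adjusted p = 0.0571). Among the kinases that shut pyruvate dehydrogenase, Pdk1 fell by 0.81 ± 0.17 (SE; edgeR adjusted p = 0.00971), a call ended by fibre scaling (edgeR adjusted p = 0.169), and Pdk3 was higher by 1.58 ± 0.45, a call lost without animal 2 or 4 (edgeR adjusted p = 0.145 and 0.156). Of the alpha subunits of phosphorylase kinase, Phka2, the liver and blood cell form, rose by 0.94 ± 0.16 (edgeR adjusted p = 0.00462), and Phka1, the muscle form, was at -0.63 ± 0.24 (edgeR adjusted p = 0.0867), or -0.87 without animal 3 (edgeR adjusted p = 0.0195). In polyamine metabolism Sat1, which acetylates polyamines for export, was higher by 1.69 ± 0.31, a call lost without animal 1 (edgeR adjusted p = 0.0659), and Smox, which oxidises spermine, was lower by 1.33 ± 0.27 (SE), a call lost without animal 2 (edgeR adjusted p = 0.0577), or by 0.86 with fibre scaling (edgeR adjusted p = 0.0219). These within-family differences were not tested as such.

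**Figure D5:**
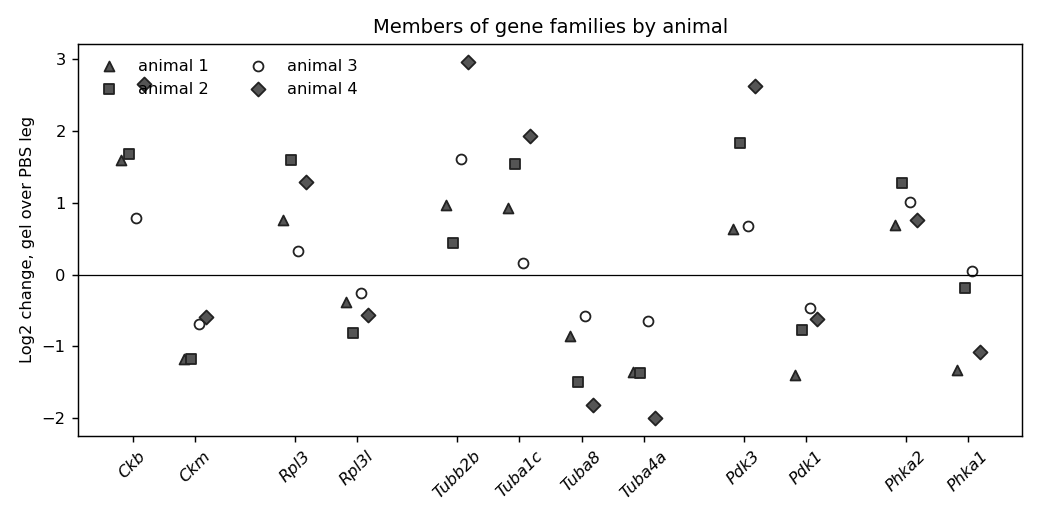
Log2 change of gel over PBS leg within each animal (1 symbol per animal, animal 3 open) for 12 genes from families whose members differed in direction, with a horizontal line at 0. Genes to the left of each family are those higher in gel, among them Ckb with all 4 animals above 0. The members to the right have all or most animals below 0, and of these Phka1 was not called.

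Cytosolic ribosomal protein genes showed small rises, 18 of 82 with 1 fall (rises 3 to 30, falls 0 to 1) and a median of 0.32. With fibre scaling 71 were higher. Rpl39 rose by 1.03 ± 0.15 (edgeR adjusted p = 0.00266) and Rpl22l1, a relative of Rpl22 known from dividing cells, by 0.90 ± 0.18. The member that fell was Rpl3l, the form of Rpl3 particular to striated muscle, at -0.50 ± 0.16 (edgeR adjusted p = 0.0498). Rpl3 itself was higher by 1.01 ± 0.20, a call lost without animal 4 (edgeR adjusted p = 0.0601), while the call of Rpl3l was lost without animal 1, 2 or 4 (edgeR adjusted p = 0.106, 0.241 and 0.156) or without the animal block (0.0992) and with fibre scaling (edgeR adjusted p = 0.889). Ribosomal protein genes have many processed pseudogenes, and the sources used here do not say how reads with several matches were counted.

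Both of the last genes lie outside any family above. Rn45s, the precursor of ribosomal RNA, stood at 94.1, 125, 103 and 134 CPM in gel, 27.5, 18.1, 23.6 and 36.3 CPM in PBS and 92.9 ± 16.4 CPM (SD, n = 4) in uninjured libraries. Gel was above PBS in each animal, by 2.14 ± 0.19 on the log2 scale (edgeR adjusted p = 0.000212), and overlapped the uninjured level. How reads with several matches were counted is not given, and whether the amount of precursor itself differed was not tested. Sln, which encodes sarcolipin, an inhibitor of the calcium pump of the sarcoplasmic reticulum, stood at 17.3, 15.2, 13.9 and 50.4 CPM in gel, 4.53, 3.58, 6.63 and 15.1 CPM in PBS and 4.76 ± 2.75 CPM in uninjured libraries. The groups overlapped, but Sln was higher in the gel leg of each animal, by 1.70 ± 0.19 (edgeR adjusted p = 0.000843), and without the animal block the call was lost (edgeR adjusted p = 0.0788).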

How the data were processed

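RNA was extracted and made into libraries by BGI, per the labels' protocols. The authors deposited a count of reads for each gene symbol in each library, not normalised. Per the submitters' processing notes, STAR and edgeR were used with build mm39, without versions. Which program counted the reads, with which annotation and strand setting, and what became of reads matching several places is not given in the sources used here, so values of overlapping, antisense or near-identical genes are uncertain. All columns were matched to a library, with 0 left over.

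Counts were analysed in R 4.3.3 with edgeR 4.0.16. Genes were kept by filterByExpr on the 8 libraries and scaling factors came from TMM (trimmed mean of M values) over 12. A robust quasi-likelihood model with the animal as a block was fitted, leaving 3 residual degrees of freedom, and gel was tested against PBS with Benjamini-Hochberg adjustment over all genes tested. "Rose" and "fell" mean an adjusted p under 0.05. The SE is the size of the log2 fold change over the square root of its F. CPM are counts divided by the scaled library total, given with the standard deviation (SD) over 4 libraries where averaged. Changes within an animal use log2 CPM with a prior count of 2. The procedure was tested on simulated counts.

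Same-numbered legs are taken as the same animal because the deposited names share their number. The correlations of their deviations from the group means were 0.142, -0.0678, 0.326, 0.0876 for animals 1 to 4. Between legs of different numbers they ran from -0.275 to 0.206, a range that held all matched values but that of animal 3. Replicates of a group differed by more than sampling noise, with a chi-square per gene of 15.6 or more.

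The lists and the genes were chosen with earlier results of these data known. The naming rule took the 10 largest rises and falls among genes of at least 1 CPM with 1 sign in 4 animals, the 10 of each direction with the largest smallest change in any animal, up to 3 higher and 3 lower genes with the smallest p from each list, and genes fixed by name. Not all are printed, and some genes are not reported here. Chosen after their values were seen were C4b, Cfb, Casp4, Gsdmd, Cd14, Il18, Pycard, Cyba, Cybb, Fgr, Vav1, Nckap1l, Was, Prkab2, Rab7, Slc38a2, the genes shown by promoter and the genes named as not called or not tested.

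Alternatives were fits without the block, DESeq2 1.42.0, limma 3.58.1 voom, other scalings and filters and leaving out each animal, with fibre scaling and halved counts added after seeing the data.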

Additional observations from a re-analysis of the deposited data

Results flagged for a closer look

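Each group of 4 libraries was examined for a value far from the other 3 by Dixon's gap ratio, for the genes given by library or as a mean above and for the summed macrophage and fibro-adipogenic markers. Of 90 groups 6 had such a value, and chance flags about 1 in 20 groups. In 4 of them it was gel library 3. Fbxo32 stood at 92.5 CPM in gel library 3, against 52.999 to 53.4 CPM in the other gel libraries. Pcx stood at 32.3 CPM there, against 19.03 to 20.1 CPM. In both cases gel library 3 was the one nearest to the PBS libraries. Psmb8 stood at 4.14 CPM, against 15.5 to 16.9 CPM, and Tlr1 at 0.914 CPM, against 14.2 to 15.5 CPM. Sln stood at 50.4 CPM in gel library 4, against 13.9 to 17.3 CPM, and its PBS leg was likewise the highest of its group. Spock2 stood at 1.82 CPM in gel library 1, against 0.509 to 0.731 CPM.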

How the results depend on the processing

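Against 2971 calls, of which 1226 at least 2-fold, leaving out 1 animal gave between 886 and 3631 calls and between 552 and 1753 at least 2-fold. Scaling to adult fibre genes gave 5227 and 2582; it raised the median of all genes by construction, shared 1797 calls and turned the sign of 58 called genes. Without the replicate block that pairs the legs, 2559 genes were called in the 8 libraries, 2356 of them shared, and 3980 in all 12, 2826 shared. DESeq2, limma voom, RLE size factors, no low-count filter, a mean of at least 1 CPM and halved counts gave between 3005 and 3553 calls; TMM over the 8 libraries changed nothing. Of 151 called genes named in the text, 11 lost their call without the block in the 8 libraries, 3 in all 12 (Adam19, G0s2 and Sln) and 3 without the low-count filter (Cyba, Rab7 and Rpl3l). None turned under the planned settings, and with fibre scaling 13 lost their call and Rab7 went to 0.0047. Among genes named as not called, leaving out 1 animal turned the sign of Akt1 (-0.026 to 0.24), Vegfa (-0.063 to 0.28), Cd46 (-0.040 to 0.53), Fth1 (-0.10 to 0.078) and Nod1 (-0.022 to 0.19), and DESeq2 that of Fth1 (-0.0021). Fcgr3 and Fcer1g passed with DESeq2, limma voom, halved counts and without the block. The cause of these changes was not tested. With 4 animals the precision is limited by their number, and genes under the count filter had no test.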

Other observations

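Adhesion and cytoskeletal families outside the comparisons above moved through few members. Of 25 integrin subunits 6 rose and 1 fell (with 1 animal left out, 3 to 7 and 0 to 1). Itga5, which forms the main fibronectin receptor, rose from 26.6 ± 2.53 to 67.9 ± 24.1 CPM (SD, n = 4), a log2 fold change of 1.27 ± 0.19 (edgeR adjusted p = 0.00366), while Itgb1, its partner, was at 0.11 ± 0.18 (edgeR adjusted p = 0.683). Of 11 septins, filament-forming GTPases of the cell cortex, 2 rose: Septin6 from 1.90 ± 0.850 to 6.92 ± 2.96 CPM (1.85 ± 0.26, edgeR adjusted p = 0.00263) and Septin1 by 1.31 ± 0.30, whose call was lost without animal 1 or 4 (edgeR adjusted p = 0.0611 and 0.0608). Among 25 semaphorins and plexins 3 rose and 1 fell, with Sema4b higher by close to the same amount in each animal, at 6.15, 8.07, 7.68 and 6.47 CPM in gel and 2.86, 3.64, 3.66 and 3.11 CPM in PBS libraries (1.10 ± 0.22, edgeR adjusted p = 0.0088). Hox genes, which record the position of cells along the body, showed 0 rises and 1 fall in 25, and mitochondrial ribosomal proteins 2 rises and 2 falls in 78.

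Some genes were seen in gel libraries and not at all in PBS libraries; they were chosen after their values were seen. Rgs1, a regulator of G protein signalling in leukocytes, had 51, 229, 0 and 309 counts in gel libraries 1 to 4 and 0, 0, 0 and 0 in PBS libraries, which is at least 173-fold higher taken against a floor of 3 counts over the PBS group. The lower 95% limit of the ratio was 140, or 70.1 with the counts halved, as low counts were mostly even. Cd5l, a secreted protein of macrophages, had 84, 168, 0 and 269 and 0, 0, 0 and 0 counts, at least 153-fold higher, with lower limits of 124 and 61.9. The bounds cover counting error only, and gel library 3 had 0 counts of either gene.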
